A study of Drosophila melanogaster with 6 samples.

Results

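The Bearded family genes of both complexes are 7 of the 18164 annotated genes on the 6 chromosome arms: E(spl)malpha-BFM, E(spl)m2-BFM, E(spl)m4-BFM and E(spl)m6-BFM in the Enhancer of split, E(spl), complex on 3R, and Tom, Brd and Ocho in the Bearded complex on 3L. They were chosen by name and position. No binding value entered the rule, but the choice was made with earlier results of these data known. The binding of the transcription factors Eyeless (Ey) and Suppressor of Hairless (Su(H)) was profiled by DamID-seq in medulla neuroblasts, the stem cells of the largest neuropil of the fly optic lobe. In DamID a factor is fused to the Dam methylase, which marks GATC sequences near the places the factor visits. All larvae carried UAS-Dcr2, tubG80ts over CyO and SoxN-Gal4, together with UAS-Ey-Dam, UAS-Su(H)-Dam or, as control, UAS-Dam alone (2 libraries each, optic lobes of about 100 brains per library). Crosses were kept at 25 °C, the eggs of 8 hours were held at 18 °C for 3 days, and expression was then induced by 72 hours at 29 °C, after which climbing larvae were dissected. SoxN-Gal4 is active in medulla neuroblasts as a whole, so a peak averages over neuroblasts of different age, and the fusion proteins come from transgenes in addition to the endogenous factors. The peak lists measure binding and not RNA, so the cell type could not be checked against marker expression.

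Bearded family proteins are small and bind the E3 ubiquitin ligase Neuralized, which drives endocytosis of the Notch ligand Delta in the signal-sending cell. By holding back Neuralized they lower the ability of a cell to signal through Notch. Several of the genes are themselves switched on by Notch: Su(H) is the DNA-binding protein that carries the Notch intracellular domain to its targets, often together with proneural bHLH activators that read E-box sequences. Their messenger RNAs are in turn held down through short conserved boxes in the 3′ UTR, called the Brd, GY and K boxes, which are complementary to the 5′ ends of microRNAs.

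Upstream sequences of 5 members are given first because peaks of Su(H) or Ey cover them and the results below refer to them. They were read from the RefSeq copy of the Release 6 genome (dm6) and lie in no annotated exon. Each is written along the strand of its gene, with Su(H) sites and proneural sites in capitals. The Su(H) sites searched were CGTGGGAA, CGTGAGAA, TGTGGGAA and TGTGAGAA and the proneural sites GCAGGTG and GCAGCTG, on both strands. The first (chr3R:26010125-26010281, plus strand) has 3 Su(H) sites in 1 orientation, at -762, -635 and -625 bp from the start of E(spl)malpha-BFM. The second (chr3R:26024649-26024896, minus strand) has, in order, 2 Su(H) sites in opposite orientation with 17 bases between them, a proneural site and a further Su(H) site, at -311, -286, -160 and -83 bp from the start of E(spl)m4-BFM. The stretch before Ocho (chr3L:14974491-14974746, plus strand) has Su(H) sites at -351 and -115 bp. The stretch before Tom (chr3L:14968560-14968597, plus strand) has 1 Su(H) site at -769 bp, and that before Brd (chr3L:14972561-14972597, plus strand) has a proneural site at -91 bp.
malpha upstream: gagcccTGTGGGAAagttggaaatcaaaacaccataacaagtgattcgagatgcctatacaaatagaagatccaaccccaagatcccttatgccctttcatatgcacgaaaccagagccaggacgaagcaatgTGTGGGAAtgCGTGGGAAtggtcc
m4 upstream: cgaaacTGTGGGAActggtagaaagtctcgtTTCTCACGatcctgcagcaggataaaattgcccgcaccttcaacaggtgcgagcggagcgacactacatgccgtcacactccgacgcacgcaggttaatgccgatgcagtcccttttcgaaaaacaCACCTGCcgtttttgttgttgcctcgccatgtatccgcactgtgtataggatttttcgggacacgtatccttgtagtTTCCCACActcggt
Ocho upstream: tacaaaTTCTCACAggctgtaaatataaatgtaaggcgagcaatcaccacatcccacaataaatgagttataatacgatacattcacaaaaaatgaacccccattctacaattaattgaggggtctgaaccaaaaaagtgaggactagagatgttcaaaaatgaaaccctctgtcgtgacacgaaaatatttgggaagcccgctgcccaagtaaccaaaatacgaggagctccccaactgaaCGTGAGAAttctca
Tom upstream: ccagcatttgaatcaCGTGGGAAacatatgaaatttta
Brd upstream: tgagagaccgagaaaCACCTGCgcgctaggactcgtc

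Peaks of Su(H) lay near nearly all of the 7 members, whereas reproducible peaks of Ey lay near those of the Bearded complex alone. A gene was counted when a peak lay over it or within 1000 bp of it. There is a list of peaks for each fusion library at a false discovery rate (FDR) under 0.01, and for each factor a list of peaks that are reproducible between the replicates by the irreproducible discovery rate (IDR). In the reproducible Su(H) list 6 of the 7 members had a peak (3 of 4 in the E(spl) complex and 3 of 3 in the Bearded complex), against 5.46% of all genes. In the reproducible Ey list 2 had one, Tom and Brd (0 of 4 and 2 of 3), against 5.54% of all genes. These 2 were also the members with reproducible peaks of both factors, against 3.33% of all genes. Which Dam library served as control for which fusion library is not given, so the factors may share controls, and their peaks at 1 place need not be independent. E(spl)m6-BFM had no peak within 1000 bp in any of the 6 lists. Neighbouring members can share a peak and are not independent, so the complexes are set side by side without a test. The factors are not tested against each other either, since 2 libraries against 2 cannot give a two-sided p below 0.333 in an exact permutation test.

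The lists of single libraries did not separate the complexes for Ey in this way. Ey-Dam replicate 1 had peaks at 5 members (3 in the E(spl) complex and 2 in the Bearded complex), against 8.03% of all genes. Ey-Dam replicate 2 had them at 6 members (3 and 3), against 7.94% of all genes. Thus 5 members had Ey peaks in both replicates (3 and 2), against 6.3% of all genes. Su(H)-Dam replicate 1 had peaks at 5 members (2 and 3), against 7.76% of all genes, and Su(H)-Dam replicate 2 at 6 members (3 and 3), against 8.23%. Su(H) peaks in both replicates were found at 5 members (2 and 3), against 6.8% of all genes. E(spl)malpha-BFM, E(spl)m4-BFM, Brd and Tom had a peak in all 4 of these lists.

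**Figure D1:**
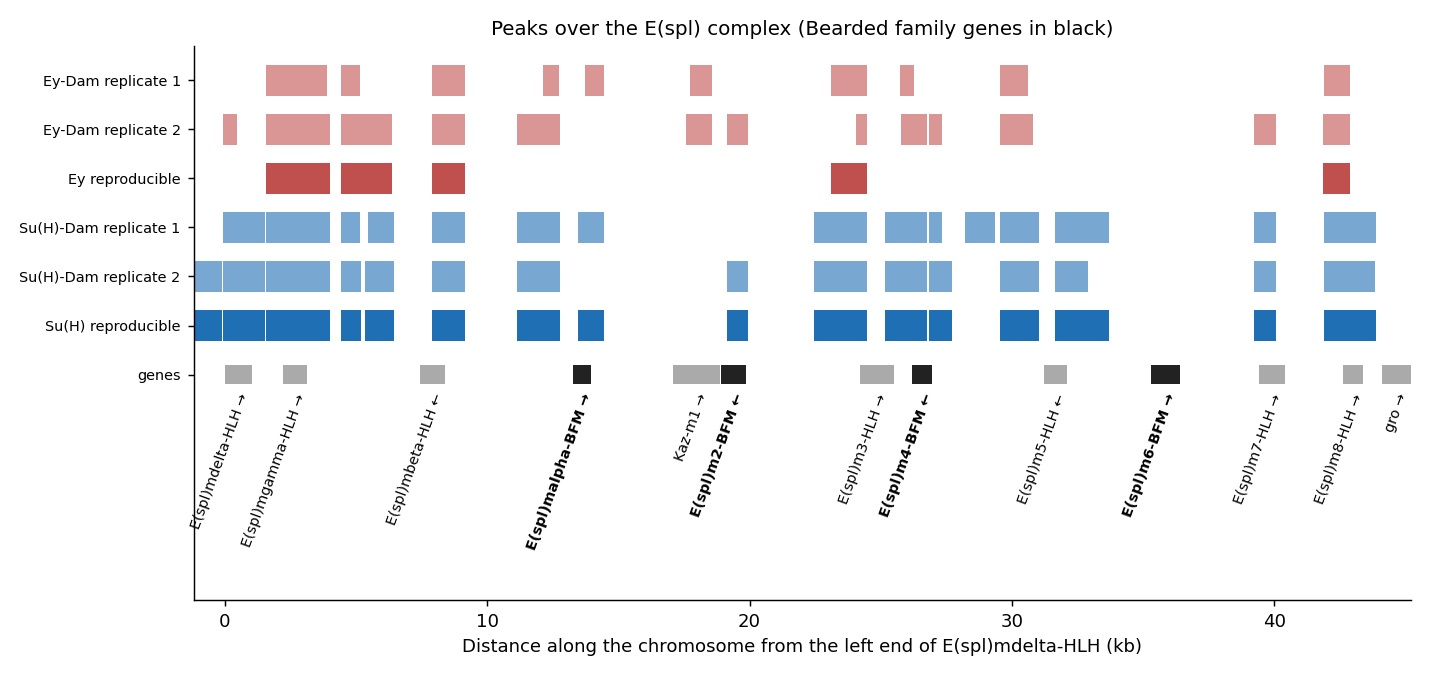
Peaks of each list over the E(spl) complex (horizontal axis, distance from the left end of E(spl)mdelta-HLH in kb; 1 line per list, peaks as boxes; genes at the bottom with the direction of transcription, Bearded family genes in black). Ey peaks of single replicates lay at E(spl)malpha-BFM, E(spl)m2-BFM and E(spl)m4-BFM, the 5 reproducible Ey peaks lay away from them, and E(spl)m6-BFM stood in a stretch without peaks.

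E(spl)malpha-BFM (3R, 26010893 to 26011568, plus strand) is active in proneural clusters under Notch control. Its upstream peak, from 26008741 to 26010387 in both Su(H)-Dam replicates, ended 506 bp before the gene and held the 3 sites of the malpha sequence above. The peak score, the height that the peak caller assigned to a peak, was 4.13 in Su(H)-Dam replicate 1 and 4.15 in replicate 2, above 94.2% and 96.2% of the peaks of the same list. In Ey-Dam the same region scored 4.92 in replicate 1 (26009765 to 26010375, 611 bp) and 4.10 in replicate 2 (1647 bp), above 40.1% and 36.4% of peaks. The upstream region thus ranked near the top of both Su(H)-Dam replicate lists and below the middle of both Ey-Dam ones. It was in the reproducible Su(H) list, with an IDR score of 688, above 38.1% of that list, and not in the reproducible Ey list. The reproducible Ey peak nearest to the gene itself lay 4114 bp from the gene. A further peak over the 3′ part of the gene was found in Su(H)-Dam replicate 1 (26011085 to 26012078, score 3.06, above 40.8%) and, shorter, in Ey-Dam replicate 1 (score 3.66, above 0.340%). It was absent from both lists of replicate 2, and yet the reproducible Su(H) list held it with an IDR score of 715, above 94.7% of that list. The reproducible lists were made from peaks at an FDR under 0.1, so they can hold peaks that a list at 0.01 does not.

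Between these peaks lay a single GATC fragment of 698 bp (3R, 26010388 to 26011085) that no list covered. It holds the start of E(spl)malpha-BFM, a Su(H) site at -485 bp, another at -340 bp and a proneural site at -463 bp. Of the 5 Su(H) sites within 1000 bp of the gene start, 3 lay under peaks of 5 lists and 2 under none. DamID resolves binding only to GATC fragments, and every peak of all 6 lists began and ended at a GATC.

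E(spl)m2-BFM (3R, 26016514 to 26017470, minus strand) had a peak over its start and another beyond its 3′ end. The peak over the start, from 26016778 to 26017561, covered 72.4% of the gene and scored 4.82 in Ey-Dam replicate 2 (above 67.5% of peaks) and 3.42 in Su(H)-Dam replicate 2 (above 74.1%). Neither library of replicate 1 had it, while the reproducible Su(H) list did (IDR score 671, above 21.5%). Downstream of the gene, 311 bp away, an Ey peak scored 3.77 in replicate 1 (850 bp) and 3.16 in replicate 2 (1002 bp), above 1.70% and 3.51% of peaks, so it was among the weakest Ey peaks. This second peak lay inside Kaz-m1, a neighbouring gene of the complex with a Kazal protease inhibitor domain. It covered 48.1% and 56.7% of Kaz-m1 in replicates 1 and 2. The noncoding RNA gene lncRNA:CR45040 was also within 1000 bp of it. Only through this peak did E(spl)m2-BFM count among the members with Ey peaks in both replicates. The peak over the gene start held no Su(H) site and 1 proneural site, in the coding sequence. The only Su(H) site within 1000 bp of the gene start, at -965 bp, lay under no peak.

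E(spl)m4-BFM (3R, 26023821 to 26024579, minus strand), a Notch target of proneural clusters, had Su(H) peaks over most of the gene and its start in both replicates. A peak from 26022776 to 26024402 over 76.7% of the gene scored 3.61 in Su(H)-Dam replicate 1 and 3.60 in replicate 2, above 72.7% and 83.0% of peaks. It was also within 1000 bp of E(spl)m3-HLH and held no Su(H) site. A peak over the gene start and the m4 sequence above, from 26024477, held all 3 Su(H) sites, the opposite pair and the proneural site. It scored 3.01 in Su(H)-Dam replicate 1 and 3.23 in replicate 2, above 37.9% and 64.9% of peaks. Both Su(H) peaks were reproducible, with IDR scores of 690 for the first and 704 for the second, above 40.6% and 65.7% of the list. The peak with the sites thus ranked lower by score in both libraries and higher by IDR score than its neighbour without sites. In Ey-Dam the gene body scored 3.98 in replicate 1 (546 bp) and 4.20 in replicate 2 (990 bp), above 5.17% and 40.2% of peaks. The gene start was called in replicate 2 alone (score 3.34, above 8.75%), and neither was reproducible for Ey.

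E(spl)m6-BFM (3R, 26032911 to 26034047, plus strand) stood alone among the members. The nearest peak was 1578 bp away in Su(H)-Dam replicate 1 and the reproducible Su(H) list, and 2399 bp away in Su(H)-Dam replicate 2. For Ey the distances were 4664 bp in replicate 1, 2821 bp in replicate 2 and 5453 bp in the reproducible list. It had no Su(H) site within 1000 bp of its start. Su(H) sites at 1157 and 1992 bp after the start, beyond the 3′ end of the gene, lay under no peak. The gene with 1000 bp on each side holds 6 GATC fragments, the longest of 2203 bp, against 9 to 21 fragments for the other members. Whether these fragments limit the detection of a peak there was not tested.

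**Figure D2:**
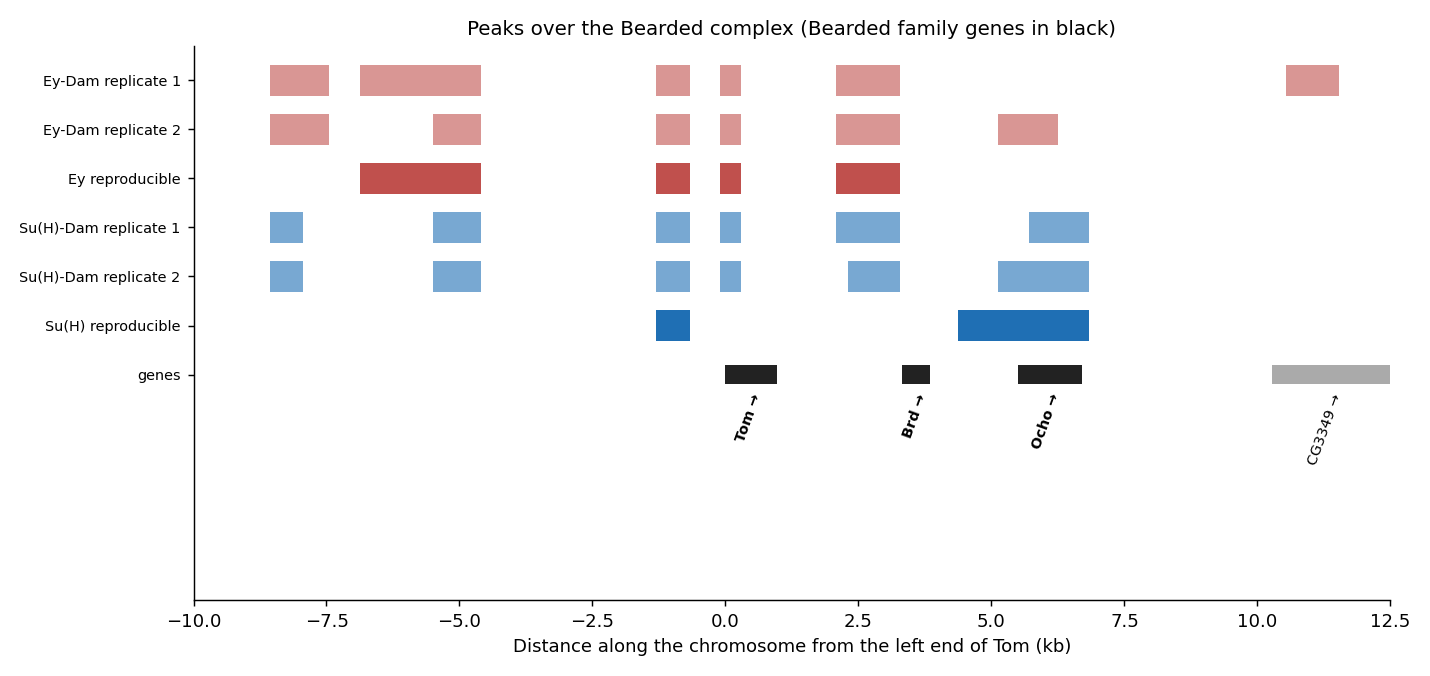
Peaks of each list over the Bearded complex (horizontal axis, distance from the left end of Tom in kb; 1 line per list, peaks as boxes; genes at the bottom with the direction of transcription). The peaks before Tom, over its start and before Brd had nearly the same ends in the 4 libraries, and the reproducible Ey list held all 3 and the reproducible Su(H) list only the one before Tom.

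Tom (3L, 14969344 to 14970306, plus strand), named as the twin of m4, had peaks of both factors in all 4 libraries at 2 places. The upstream place, from 14968045 to 14968682 and 662 bp before the gene, holds the Su(H) site of the Tom sequence above. It scored 3.87 and 3.81 in Su(H)-Dam replicates 1 and 2 (above 85.2% and 89.3% of peaks) and 4.40 and 4.72 in Ey-Dam replicates 1 and 2 (above 19.3% and 63.3%). This was the only interval at a member that both reproducible lists held. Over the start of the gene, from 14969249 to 14969635, the Ey scores were 5.56 and 5.49 (above 68.9% and 90.5% of peaks), the highest Ey scores at any member. The Su(H) scores there were 2.68 and 2.29, above 20.8% and 14.8% of peaks, and no Su(H) site lay in the peak. The rank order of the factors was therefore opposite at the 2 places, in each replicate, and only the Ey list kept the peak over the start as reproducible.

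Brd (3L, 14972667 to 14973198, plus strand), the gene whose gain-of-function alleles named the family, had 1 peak in each library, ending 35 bp before the gene and holding the proneural site of the Brd sequence above. In Ey-Dam it ran from 14971425 to 14972632 in both replicates and scored 4.98 and 4.70, above 42.9% and 62.4% of peaks. In Su(H)-Dam it scored 2.63 and 2.40, above 18.8% and 20.5%, with no Su(H) site under the peak or within 1000 bp of the gene start. Only Ey was reproducible at this place. The reproducible Su(H) peak that counted for Brd was another one, from 14973710 to 14976181, 512 bp downstream of the gene and over the whole of Ocho. When distance was taken from the gene start, Brd had no reproducible Su(H) peak, and Tom remained as the 1 member with reproducible peaks of both factors.

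Ocho (3L, 14974848 to 14976040, plus strand) was on the Su(H) side. Su(H)-Dam replicate 1 had a peak from 14975045 to 14976181 over 83.5% of the gene and replicate 2 one from 14974465 to 14976181 over 100% of it. They scored 3.74 and 3.36, above 79.3% and 71.7% of peaks. Ey-Dam replicate 2 had a peak from 14974465 to 14975594 with a score of 3.05, above 1.92% of peaks, and Ey-Dam replicate 1 had none within 1000 bp, the nearest lying 2216 bp away. The 4 Su(H) sites within 1000 bp of the gene start, of which 2 are in the Ocho sequence above and 2 in its 5′ UTR, lay under the peaks of Ey-Dam replicate 2, Su(H)-Dam replicate 2 and the reproducible Su(H) list. They lay outside the peak of Su(H)-Dam replicate 1. The reproducible Su(H) peak had an IDR score of 611, above 4.32% of that list and above the lowest score of the list, 542. The noncoding RNA gene lncRNA:marge lies within 1000 bp of the same Su(H) peaks.

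**Figure D3:**
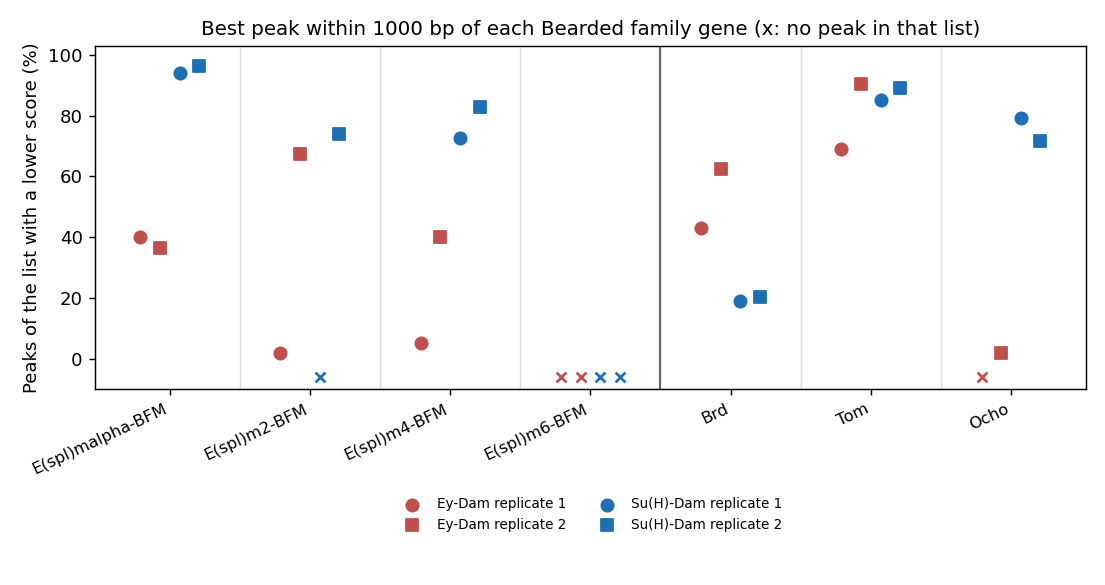
Rank of the best peak within 1000 bp of each Bearded family gene in its own list (vertical axis, percent of peaks of the list with a lower score; circles, replicate 1; squares, replicate 2; red, Ey-Dam; blue, Su(H)-Dam; crosses, no peak). E(spl)malpha-BFM and E(spl)m4-BFM ranked higher for Su(H) than for Ey in both replicates and Brd higher for Ey. The best peaks of Tom ranked high for both factors but lay at different places.

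Ordered by the rank of their best Su(H) peak, E(spl)malpha-BFM came first, above 94.2% and 96.2% of peaks in the 2 replicates, and Tom followed with 85.2% and 89.3%. E(spl)m4-BFM (72.7% and 83.0%) and Ocho (79.3% and 71.7%) overlapped each other, and Brd was last among genes with a peak in both. For Ey, Tom (68.9% and 90.5%) came before Brd (42.9% and 62.4%), with E(spl)malpha-BFM (40.1% and 36.4%) next. E(spl)m4-BFM (5.17% and 40.2%) spanned a wide range between the Ey replicates, which overlapped that of E(spl)malpha-BFM. The values of E(spl)m2-BFM (1.70% and 67.5%) belong to different peaks, downstream in replicate 1 and over the start in replicate 2. Its downstream peak alone was above 1.70% and 3.51% of peaks. The place of E(spl)m4-BFM and E(spl)m2-BFM in the Ey order is therefore not fixed. Between the factors, Su(H) ranked higher in both replicates at E(spl)malpha-BFM and E(spl)m4-BFM, and Ey ranked higher in both at Brd. The share of all genes whose ranks part in this way was not counted, so no weight is put on it. At Tom the ranks overlapped, but its best Ey peak lay over the gene start and its best Su(H) peak upstream. Within each of these places they did not overlap. Upstream, Su(H) was above 85.2% and 89.3% of peaks and Ey above 19.3% and 63.3%. Over the start, Ey was above 68.9% and 90.5% and Su(H) above 20.8% and 14.8%.

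Reproducible and replicated were not the same at the E(spl) members. None of the Ey peaks found at E(spl)malpha-BFM, E(spl)m2-BFM and E(spl)m4-BFM in either replicate lay over a reproducible Ey peak, although 1 pair at each gene overlapped between replicates by at least 90.7% of the shorter peak. At Tom and Brd, all Ey peaks did. Over the whole series, 852 of the 1163 Ey-Dam replicate 1 peaks that overlapped a replicate 2 peak lay over a reproducible one (73.3%). In Ey-Dam replicate 1 the scores did not part the complexes, since the upstream peak of E(spl)malpha-BFM scored 4.92 and that of Tom 4.40. E(spl)m2-BFM (3.77) and E(spl)m4-BFM (3.98) were below both. In replicate 2 the scores of peaks found in both replicates did part them. They were 4.10, 3.16 and 4.20 at E(spl)malpha-BFM, E(spl)m2-BFM and E(spl)m4-BFM. At Tom they were 4.72 and 5.49, and at Brd 4.70. The Ey intervals at Tom and Brd had the same ends in both replicates (638, 387 and 1208 bp), while those at the E(spl) members measured 611 and 1647 bp, 850 and 1002 bp, and 546 and 990 bp. The part of the scores or of these lengths in the IDR result was not tested.

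**Figure D4:**
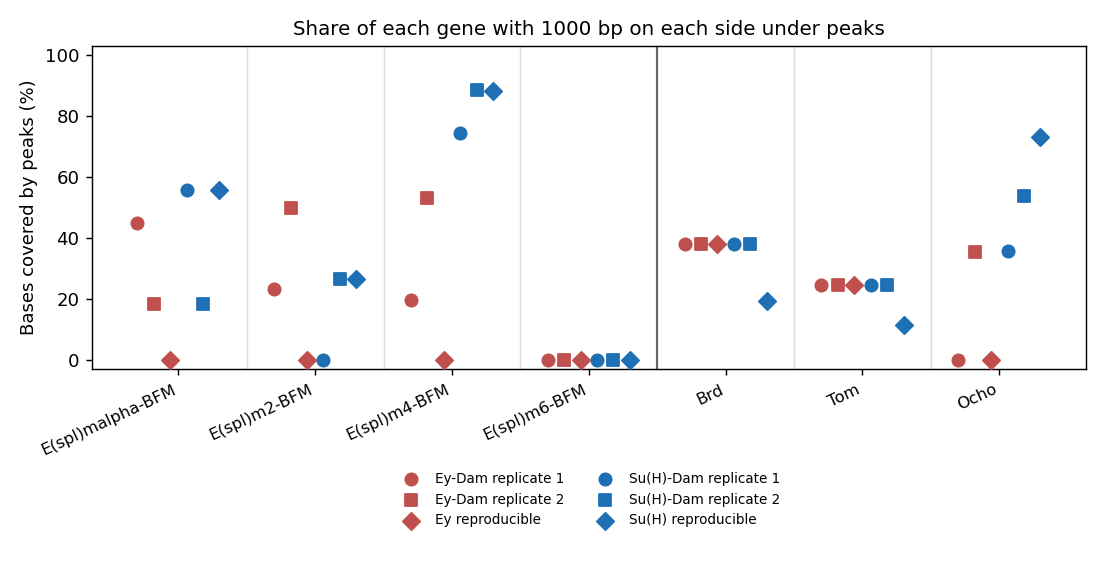
Percent of bases covered by peaks in each gene extended by 1000 bp on each side (vertical axis; circles, replicate 1; squares, replicate 2; diamonds, reproducible list; red, Ey; blue, Su(H)). Reproducible Ey peaks covered 0% of all 4 E(spl) members and of Ocho, and reproducible Su(H) peaks covered most of the E(spl)m4-BFM and Ocho windows.

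The length that peaks cover was taken over each gene with 1000 bp on each side, and it varied between lists. Reproducible Su(H) peaks covered 88.4% of the window of E(spl)m4-BFM, 73.1% of that of Ocho, 55.6% of that of E(spl)malpha-BFM and 26.5% of that of E(spl)m2-BFM. For Brd and Tom they covered 19.3% and 11.4%. In Su(H)-Dam replicates 1 and 2 the shares were 74.6% and 88.4% at E(spl)m4-BFM, 35.6% and 53.8% at Ocho, 55.6% and 18.5% at E(spl)malpha-BFM, and 0% and 26.5% at E(spl)m2-BFM. They were 38.2% in both at Brd and 24.5% in both at Tom, so the reproducible list covered less of these windows and more of that of Ocho than the single libraries. Reproducible Ey peaks covered 38.2% of the Brd window and 24.5% of the Tom window, the same as in both Ey-Dam replicates, and none of the other windows. In Ey-Dam replicates 1 and 2 the shares were 44.9% and 18.5% at E(spl)malpha-BFM, 23.3% and 49.8% at E(spl)m2-BFM, 19.8% and 53.1% at E(spl)m4-BFM, and 0% and 35.4% at Ocho. In single libraries Ey thus covered as much of some E(spl) windows as of those of Brd and Tom. The smallest reproducible Su(H) value above 0%, 11.4% at Tom, was above that of 96.6% of all genes. Only 5.46% of all genes had a reproducible Su(H) peak within 1000 bp, so any value above 0% ranks above most genes. In the whole E(spl) complex, 43388 bp, reproducible Su(H) peaks covered 48.2% and reproducible Ey peaks 18.5%. In the stretch from Tom to Ocho, 6697 bp, they covered 34.8% and 22.4%. Over all arms the shares were 1.34% and 1.65%. The median GATC fragment was 131.5 bp long in the E(spl) complex and 138 bp in the Bearded complex, against 196 bp over all arms.

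Among neighbours of the E(spl) members, the bHLH repressor genes of the same complex were more often near a reproducible Ey peak. Of the 7 bHLH genes, 7 had a reproducible Su(H) peak and 5 a reproducible Ey peak, all but E(spl)m5-HLH and E(spl)m7-HLH. None of the E(spl) members had a reproducible Ey peak. E(spl)mdelta-HLH counted through a peak 559 bp away that lies over E(spl)mgamma-HLH. Ey peaks in both replicates did not set the groups apart, with 6 of 7 bHLH genes and 3 of 4 E(spl) members. Kaz-m1 and gro, which encodes the corepressor Groucho, had a reproducible Su(H) peak each and no reproducible Ey peak. These Su(H) peaks were the ones over E(spl)m2-BFM and E(spl)m8-HLH. Of the 9 genes fixed for the Neuralized step and the Notch core, neur, Delta, Ser, N and numb had reproducible peaks of both factors, against 3.33% of all genes. These genes are much longer than the members, and the share among genes of such length was not counted. Reproducible Su(H) peaks covered from 6.03% (N) to 49.6% (neur) of the gene with 1000 bp on each side. Peaks at the Su(H) gene were found in both Su(H)-Dam libraries (scores 2.40 and 2.65) and in no other list, and mib1, H and CtBP had none. The Su(H)-Dam transgene itself carries the Su(H) coding sequence. Whether DNA of the transgene made the peaks at the Su(H) gene was not tested, so they are not read as binding. The gene neur, which encodes the ligase that Bearded proteins bind, had scores of 4.52 and 4.19 in Su(H)-Dam (above 98.6% and 96.6% of peaks) and 5.51 and 4.65 in Ey-Dam (above 66.9% and 60.6%). BobA, a further Bearded family gene on 3L outside the stretch from Tom to Ocho, is not among the 7 members and was at least 14659 bp from any peak.

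**Figure D5:**
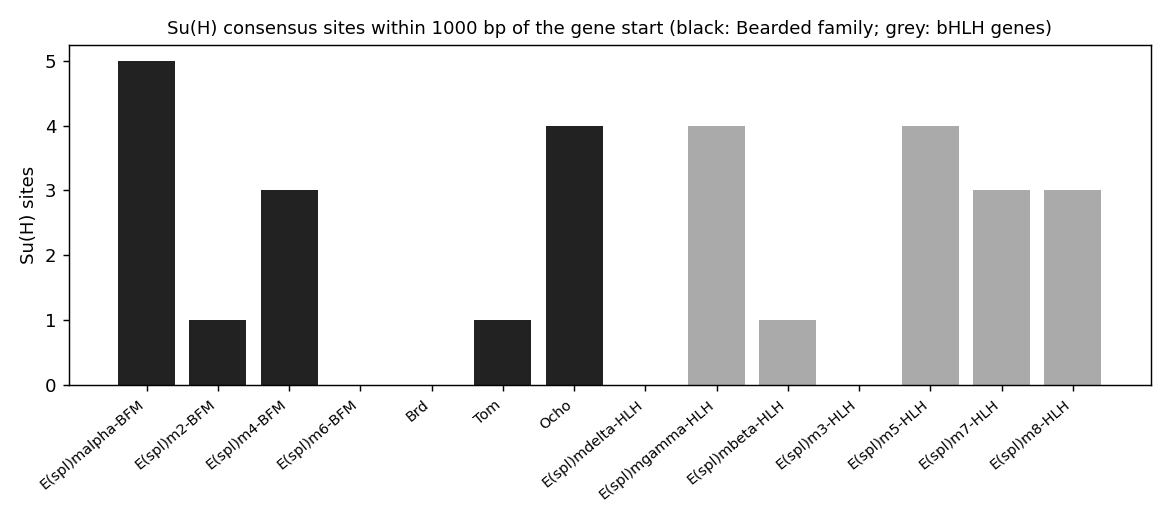
Number of Su(H) sites within 1000 bp of the gene start (vertical axis) in the 7 Bearded family genes (black) and the 7 bHLH genes of the E(spl) complex (grey). E(spl)malpha-BFM had 5 sites, Ocho 4 and E(spl)m4-BFM 3, while E(spl)m6-BFM and Brd had none.

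Clusters of Su(H) sites were found at members of both complexes. Within 1000 bp on each side of the gene start, E(spl)malpha-BFM had 5 sites, Ocho 4 and E(spl)m4-BFM 3, and E(spl)m2-BFM and Tom had 1 each. At least 1 site was found at 5 of 7 members, against 18.7% of all genes. At least 3 sites were found at 3 members, against 0.149% of all genes (27 genes, 4 of them E(spl) bHLH genes), and E(spl)malpha-BFM was the only gene with 5. An opposite pair of sites with 10 to 30 bases between was found at E(spl)m4-BFM alone among the members, against 11 genes in all (0.0606%), of which 4 are E(spl) bHLH genes. A proneural site within the same distance was found at 7 of 7 members, against 55.6% of all genes. In the promoter itself, from 250 bp before to 50 bp after the start, 2 members had a Su(H) site (E(spl)m4-BFM and Ocho), against 3.3% of all genes, and 3 had a proneural site (E(spl)m4-BFM, Brd and Tom), against 8.66%. The genome was searched by letters, and a match is not a measured site.

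The 3 members with at least 3 sites had reproducible Su(H) peaks and no reproducible Ey peak. In single libraries, E(spl)malpha-BFM and E(spl)m4-BFM had Ey peaks in both replicates and Ocho in replicate 2. Among all 27 genes with so many sites, 48.1% had a reproducible Su(H) peak and 29.6% a reproducible Ey peak. The 27 include these 3 and 4 E(spl) bHLH genes, and all 7 bHLH genes of that complex had a reproducible Su(H) peak. The shares are thus partly those of the 2 complexes, and they were not computed without them. Among the 14759 genes without a site the shares were 4.96% and 5.43%. E(spl)m6-BFM and Brd, both without a site near the start, differed in their peaks: E(spl)m6-BFM had no Su(H) peak, and the Su(H) peaks before Brd were of low rank in both libraries. Of all reproducible Su(H) peaks 32.2% held a site, and of all reproducible Ey peaks 24%. The Ey peaks were longer, with a median of 1865.5 bp against 1551 bp. Per kb of reproducible peak there were 0.238 sites for Su(H) and 0.141 for Ey, against 0.106 over all arms.

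The 3′ UTRs of the members, 189 to 851 bases long, carried the boxes that the family is known for in different numbers. The sense strand was searched for the Brd box AGCTTTA, the GY box GTCTTCC and the K box TGTGAT. Brd had 3 Brd boxes and 1 GY box, E(spl)m4-BFM 2 Brd boxes, 2 GY boxes and 1 K box, and Tom 1, 2 and 1 of them. E(spl)malpha-BFM had 2 Brd boxes and 2 K boxes, E(spl)m2-BFM and E(spl)m6-BFM 1 K box each, and Ocho none. A Brd box was found in 57.1% of members, against 6.13% of the 13534 genes with an annotated 3′ UTR. For the GY box the shares were 42.9% and 1.57%, for the K box 71.4% and 13.4%, and for all 3 boxes together 28.6% (E(spl)m4-BFM and Tom) and 0.207%. The following sites, 1 from each complex for the Brd box and both GY boxes of Tom, are shown with the box in capitals because their surroundings are alike: in Brd (3L, 14973134 to 14973140) and E(spl)m4-BFM (3R, 26023965 to 26023971, minus strand) a GY box starts after 6 further bases, and the GY boxes of Tom (14970193 to 14970199 and 14970248 to 14970254) have the same bases just before them.
Brd, Brd box: cacaaatatccAGCTTTAatcattgtctt
m4, Brd box: attggatctccAGCTTTAatcaacgtctt
Tom, first GY box: gccgaatcattGTCTTCCatgtttgtttg
Tom, other GY box: taagaatcattGTCTTCCatgtaaaactt
Tom and E(spl)m4-BFM, which share all 3 boxes, lie in different complexes, and Ocho, the only member without a box, lies beside Brd, which has 4.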

How the data were processed

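DamID-seq libraries (2 per fusion and 2 of Dam) were processed by the authors with the damidseq pipeline: reads were aligned to dm6 with Bowtie2, counted per GATC fragment and set against Dam alone as log ratios. Which Dam library served which fusion library is not given in the sources used here. Peaks were called per fusion library at an FDR under 0.01, and the deposited column holds a peak score. Peaks at an FDR under 0.1 entered IDR (threshold 0.05), and the deposited reproducible lists hold an IDR score, of which 822 of 984 Ey peaks were at the ceiling of 1000. The lists hold no read counts, so the depth behind a peak is unknown. The lists comprised 1470, 1509 and 984 peaks for Ey and 1455, 1461 and 972 for Su(H) (replicate 1, replicate 2, reproducible). Reproducible intervals begin 1 base after those of the replicates. 3 overlap lists were not used.

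Genes were taken from Ensembl release 115, without 5809 transposable elements, and sequences from RefSeq Release 6. Peaks within 1000 bp of a gene were assigned with Python 3.11.15, and ranks are shares of the own list with a lower score, since scores differ in scale between lists. Assignment was tested on simulated data. Alternatives were other distances, the gene start, scores above the median of each list, overlap of replicate peaks and single replicates. All members, the genes of both complexes, the Notch genes listed and genes that share a peak with a member were to be named. Members and lists were chosen with earlier results of these data known. BobB and BobC, and protein sequences, were not analysed here.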

Additional observations from a re-analysis of the deposited data

How the results depend on the processing

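Of 32 alternatives to 5 counts of members, 20 stayed within 1.5 times the count. Members with a reproducible Ey peak (2) became 1 with the peak over the gene and 6 within 5000 bp (3 in the E(spl) complex and 3 in the Bearded complex), and 5 to 6 with a replicate left out, when the FDR list of the other one was used. Members with reproducible peaks of both factors (2) became 0 with peaks over the gene, 6 within 5000 bp, 1 within 1000 bp of the transcription start, and 4 to 6 with a replicate left out. Members with Ey peaks in both replicates (5) became 2 over the gene and 1, Tom, with scores above the median of each list, and 5 to 6 with a replicate left out. Those with Su(H) peaks in both (5) became 3 over the gene and 5 to 6 with a replicate left out. Members with a reproducible Su(H) peak (6) ranged over 4 to 7, and 5 to 6 with a replicate left out. The lack of Ey peaks at the E(spl) members held for the reproducible list and distances up to 1000 bp, and not for single replicates or within 5000 bp. No paired analysis was possible because the results are counts of peaks and come from no test. The depth behind a peak is unknown, and peaks are resolved only to GATC fragments.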
